A study of Mus musculus with 8 samples.

Results

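Neurotransmitter leaves a presynaptic terminal when synaptic vesicles fuse with the plasma membrane, and the genes whose products load, tether, prime and fuse these vesicles were examined in 2 kinds of cortical GABAergic interneuron. Members were chosen by gene symbol from 16 families (synaptotagmins, syntaxins, Snap and Vamp proteins, complexins, synapsins, Sv2, Rims, Unc13, Stxbp, Rab3, Doc2, synaptogyrins, synaptophysin with synaptoporin, Bassoon with Piccolo, and Nsf). The rule took 82 of the 23335 gene names in the deposited table, and 75 of them had at least 1 UMI, the count of distinct tags of a gene in a cell. The other 7 (Rab3d, Stx2, Stx19, Syngr2, Syngr4, Syt6 and Syt8) had 0 UMI in all cells, which allows a level of up to 0.393 CPM (UMI scaled to a common total), the value of 3 UMI in the sum of all cells.

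In the release machinery, a vesicle SNARE (Vamp) pairs with SNAREs of the target membrane (Stx and Snap) to pull the membranes together. Stxbp and Unc13 proteins prepare the complex, complexins hold it, and synaptotagmins sense the calcium that enters with a spike. Families hold several paralogs with different calcium affinity or speed, and fast-spiking parvalbumin cells are known for using the fast sensor Syt2 beside Syt1, and Vamp1 beside Vamp2.

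In these cells Syt1 stood higher in every ChC batch than in any Pv batch, with means of 3308 ± 311 and 1738 ± 524 CPM (SD, n = 4). Such a gap held for 1 of 47 members that passed a filter on low counts, beside 3.36% of 6481 genes. That share was near that of all genes and is not a result about the members. Vamp1 and Syt2 made up a larger part of their pairs in the Pv animals, 49.7% against 15.5% and 1.66% against 0.188% (animal means, n = 2). Cplx1, Sv2a, Syn2, Syngr1 and Syp led their families in both cell types, and no member passed the edgeR test over animals, in which 2 animals stood against 2.

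Single neurons were picked by hand from frontal cortex of female mice by the red fluorescence of the Ai14 reporter, so each Cre driver sets which cells a group holds. ChC (chandelier) cells, whose boutons sit on axon initial segments, came from Nkx2.1-CreER; Ai14 mice given tamoxifen at E17.5, aged P31 (animal 1, library batches 1 and 2) and P32 (animal 2, batches 3 and 4). Pv (parvalbumin) cells came from Pv-ires-Cre; Ai14 mice aged P29 (animal 3, batches 5 and 6) and P35 (animal 4, batches 7 and 8), and the deposited labels list tamoxifen for them too. The sample titles call the mice of both types WT. Cell type, mouse line, animal and flow cell cannot be told apart, since each flow cell and each line held a single cell type.

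The ChC batches 1 to 4 held 527743, 657957, 2898413 and 1307666 UMI, and the Pv batches 5 to 8 held 456458, 501563, 370238 and 921212 UMI. Each batch held 16 cells, except for batches 4 and 6, which had 15 with a count, so 63 cells of each type were used. A median ChC cell held 39200 UMI and a median Pv cell 27116 UMI. Reads primed at the poly(A) end were aligned and their distinct tags counted, so levels were scaled to the batch total as CPM (UMI of a gene per batch total on a common scale, with TMM factors between batches) and were not divided by transcript length. Each amplified RNA carried a random tag, and whether 1 mRNA could carry several tags was not tested, so intervals below cover counting error only. Genes with several transcript rows were summed, which counts some tags more than once, and the value of a single row, scaled to the total of single rows, is given for some of them.

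The labels were checked first. Gad1, the GABA-synthesizing enzyme, stood at 1080.3 ± 574 CPM in ChC and 1279 ± 838 in Pv batches (mean ± SD, n = 4), and Slc32a1, the vesicular GABA transporter, at 1924 ± 429.8 and 1882 ± 912. Lhx6, a transcription factor of interneurons from the medial ganglionic eminence, stood at 479 ± 319 and 164 ± 114 (281 and 95.6 from a single row), and Gad2 at 569 ± 289 and 186 ± 181 (99.2 in Pv without batch 5). Pvalb, the calcium buffer that marks Pv cells, stood at 142, 165, 100.3 and 75.9 CPM in ChC batches and at 1488, 689, 414 and 1042 in Pv batches. Every Pv batch lay above every ChC batch, and the log2 ratio of ChC to Pv was -2.99 with an SE of 0.63 (edgeR quasi-likelihood test over animals with Benjamini-Hochberg adjustment, adjusted p = 0.598).

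Markers of other cell types were also present. Of 7 pyramidal markers, 4 had UMI, while Slc17a6, Neurod6 and Tbr1 were at 0. Their summed level was 68.6, 674, 90.2 and 1114 CPM in ChC batches 1 to 4 and 745, 1007, 1914 and 321 in Pv batches 5 to 8. Camk2a, a kinase of excitatory neurons, was the most abundant, with a mean of 461 over batches, but with a single row per gene it was 272, near Nrgn at 267, and the pyramidal sums had means of 389.95 in ChC and 811 in Pv batches. The 5 GABAergic markers in the table (Dlx6os1 was absent) summed to 3804, 4017, 4406 and 4386 CPM in ChC and 4631, 4429, 1660.03 and 3667 in Pv batches, led by Slc32a1. Batch 7 had both the highest pyramidal sum and the lowest GABAergic sum, and the part of pyramidal transcripts in any level below was not tested. Astrocyte, oligodendrocyte, microglial and endothelial markers summed to means of 127, 91.7, 9.18 and 12.2 CPM in ChC and 63.7, 69.7, 2.44 and 11.2 in Pv batches, led by Slc1a3, Mbp, Csf1r and Flt1. Mbp has 4 rows, and with a single row per gene the oligodendrocyte means were 48.04 and 35.2. Gfap, Mobp, Mag, C1qa, Tmem119, Cldn5 and Ly6c1 were at 0. Markers of other interneurons summed to 55.8 to 1094 CPM in ChC and 92.3 to 632 in Pv batches, led by Cck, while Sst had 1 UMI in all, Vip none and Lamp5 no row. The highest astrocyte and oligodendrocyte sums, 272 and 202 CPM, were those of batch 4. Among Pv batches the highest were those of batch 7, at 143 and 168. Microglial sums were 35.2 CPM in batch 4, 9.76 in batch 7, 1.52 in batch 2 and 0 elsewhere, so both microglial means rest on single batches.

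Together the members took a similar part of all UMI in each batch. They made up 1.66% ± 0.0532 of UMI in ChC batches and 1.56% ± 0.162 in Pv batches (mean ± SD, n = 4), with a range of 1.39% to 1.77% over the 8 batches. In all, 51 members had UMI in every batch and 26 had a mean above 100 CPM, while 15 had from 1 to 90 UMI in all cells.

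Among the synaptotagmins, Syt1 and Syt11 made up most of the family's level. Syt1, the main sensor of synchronous release, stood at 2985, 3129, 3438 and 3678 CPM in ChC batches 1 to 4 and at 2457, 1602, 1203 and 1690.2 in Pv batches 5 to 8. All 4 ChC batches lay above all 4 Pv batches, as they did for 3.36% of all genes that passed the filter over batches. Syt1 was the most abundant member, with 51.3% of the family's level on average. The means were 3308 ± 311 in ChC and 1738 ± 524 in Pv batches (SD, n = 4), and the log2 fold change over animals was 0.83 with an SE of 0.39 (edgeR quasi-likelihood test with Benjamini-Hochberg adjustment, adjusted p = 0.819).

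The difference in Syt1 was also seen cell by cell. With every cell thinned to 10000 UMI, the median ChC cell had 34 UMI of Syt1 (quartiles 29 and 37, 49 cells) and the median Pv cell 18 (quartiles 14 and 22, 59 cells). No ChC cell had fewer than 21 and no Pv cell more than 35, so the ranges overlapped. Batch medians were 28, 33.5, 35 and 35.5 UMI in ChC and 25, 15, 17 and 15.5 in Pv cells. Pv batch 5 was the nearest to the ChC batches.

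Syt2, the faster sensor, had only 90 UMI in all 126 cells. Its level was 4.29, 10.6, 0.755 and 10.95 CPM in ChC batches and 39.2, 60.7, 7.81 and 16.1 in Pv batches. Pv batch 7 lay within the ChC range and the other Pv batches lay above it. The log2 fold change was -2.46 with an SE of 1.51 (edgeR quasi-likelihood test with Benjamini-Hochberg adjustment, adjusted p = 0.901). Cells with a Syt2 UMI numbered 17 of 63 ChC and 35 of 63 Pv cells as deposited, and 2 of 49 (4.08%, 95% Clopper-Pearson interval 0.498% to 13.98%) and 13 of 59 (22.03%, 12.3% to 34.7%) after thinning. All of them also had Syt1. The Pv cells were 4 of 15, 7 of 13, 1 of 15 and 1 of 16 in batches 5 to 8, and 13.04% without batch 6, and the intervals cover counting error only.

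As a share of Syt1 and Syt2 UMI together, Syt2 made up 0.143%, 0.338%, 0.0219% and 0.297% in ChC batches and 1.57%, 3.65%, 0.645% and 0.944% in Pv batches. The batches of the 2 types did not overlap, but Syt1 supplied over 95% of the pair everywhere. The 95% Clopper-Pearson interval of the lowest Pv batch (0.176% to 1.64%) took in the values of ChC batches 2 and 4, so that gap was within counting error. The difference of animal means was -1.47 percentage points, ChC minus Pv (0.188% and 1.66%; two-sided exact permutation test over 2 and 2 animals, p = 0.333, the smallest that 6 arrangements allow). It ran from -2.07 to -1.03 points with a batch left out. With 8 batches as samples the difference was -1.50 points (exact permutation test, p = 0.0286, the smallest that 70 arrangements allow). Batches of one animal are not independent, so nothing is read from that p.

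Syt11, a synaptotagmin that does not bind calcium, was second in the family at 34.5% of its level. It stood at 3030.0, 1521, 1617 and 1459 CPM in ChC and 1606, 582, 1919.8 and 1849 in Pv batches. Batch 1 lay far above and batch 6 far below the rest, and the 2 types overlapped throughout. Syt11 exceeded Syt1 in batches 1, 7 and 8. Further members with high levels, chosen after their values were seen, were Syt13, an atypical form, at 10.95 to 871 CPM, and Syt7, a high-affinity sensor of slow release, at 54.7 to 537 over the 8 batches. Both overlapped between types. Doc2a, a high-affinity sensor linked to spontaneous release, had means of 11.5 ± 12.7 CPM in ChC and 37.2 ± 45.2 in Pv batches (6.76 in ChC without batch 3 and 15.04 in Pv without batch 5), and Doc2b 4.89 ± 3.55 and 6.92 ± 5.13. They had 172 and 50 UMI in all, and the level of Doc2a is uncertain because Ino80e lies within 1000 bases of its 3′ end on the opposite strand. The other 10 synaptotagmins with UMI had means of 2.38 to 55.9 CPM.

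Of the 8 isoform shares compared, that of Vamp1 had the largest difference in percentage points. Relative to its level the Syt2 share differed more, and only the Syt2 share had batches that did not overlap. Vamp1, the vesicle SNARE of fast synapses and of motor terminals, stood at 0, 47.05, 20.0 and 69.6 CPM in ChC batches 1 to 4 and at 55.4, 425, 127 and 334 in Pv batches 5 to 8. Pv batches 6, 7 and 8 lay above every ChC batch, and Pv batch 5, from the same animal as batch 6, lay within the ChC range. The log2 fold change over animals was -3.07 with an SE of 0.86 (edgeR quasi-likelihood test, unadjusted p = 0.00711, Benjamini-Hochberg adjusted p = 0.598).

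Vamp2, the common vesicle SNARE of forebrain synapses, stood at 184, 124, 193 and 209.6 CPM in ChC and 185, 268, 111 and 389 in Pv batches. These ranges overlapped, with the highest and the lowest value both in Pv batches of animal 4. The log2 fold change was -0.65 with an SE of 0.70 (edgeR quasi-likelihood test with Benjamini-Hochberg adjustment, adjusted p = 0.990). The share of Vamp1 in the pair was 0%, 27.4%, 9.38% and 24.9% in ChC batches and 23.1%, 61.3%, 53.3% and 46.2% in Pv batches. Only Pv batch 5 overlapped the ChC batches, with a 95% Clopper-Pearson interval of 15.4% to 32.4% beside 19.5% to 36.6% in ChC batch 2 and 20.5% to 29.8% in ChC batch 4. In batch 1 the count of 0 among 86 UMI allowed a share of up to 4.199% (upper Clopper-Pearson bound), below every other batch.

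By animal, Vamp1 made up 15.6% and 15.4% of the pair in the 2 ChC animals and 52.2% and 47.3% in the 2 Pv animals. The difference of means was -34.3 percentage points (ChC minus Pv, exact permutation test over animals, p = 0.333, the smallest possible). The test cannot reach 0.05 with 4 animals. With a batch left out the difference ran from -42.04 to -19.7 points, the smallest without batch 6. In thinned cells, Vamp1 was found in 0 of 11, 3 of 10, 1 of 14 and 6 of 14 cells of ChC batches 1 to 4, and in 5 of 15, 13 of 13, 13 of 15 and 16 of 16 cells of Pv batches 5 to 8. Both Vamp1 and Vamp2 were found in 9 of 49 ChC cells (18.4%, 95% Clopper-Pearson interval 8.76% to 32.0%) and 43 of 59 Pv cells (72.9%, 59.7% to 83.6%). As deposited, both were found in 33 of 63 ChC cells (52.4%) and 54 of 63 Pv cells (85.7%), at a higher depth per ChC cell.

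Vamp4, a SNARE of the trans-Golgi network and of asynchronous release, was second in the family at 10.7, 131, 442 and 269 CPM in ChC and 187, 2.09, 72.3 and 161 in Pv batches. It led the family in batches 2 to 5, and Vamp3, the ubiquitous cellubrevin, led in batch 1 at 356 CPM against 0 to 59.4 elsewhere. Vamp1 led in batches 6 and 7, and Vamp2 in batch 8. The leading vesicle SNARE thus differed between batches of 1 animal in 3 of the 4 animals. Of the remaining members, Vamp5, Vamp7 and Vamp8 had means of 1.15, 21.3 and 4.79 CPM.

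Target-membrane SNAREs were led by Snap25, which stood at 933, 879, 867 and 627 CPM in ChC and 665, 1269, 426 and 684 in Pv batches. The ChC batches lay inside the range of the Pv batches. Snap91 carries the name but encodes AP180, a clathrin assembly protein, and had means of 499 ± 347 in ChC (330 without batch 3) and 360.0 ± 149 in Pv batches. Among all Snap members, Snap25 made up 42.1% to 68.8% of UMI over the batches, and among those without Snap91, an alternative chosen after seeing the data, 75.8% to 91.98%. The difference of animal means in the first share was -1.65 percentage points (ChC minus Pv, exact permutation test, p = 1), and it was 5.58 points without Snap91. Snap47, a SNARE with no palmitoylated linker, ranged from 33.2 to 331 CPM, while Snap23 and Snap29, the broadly expressed forms, had 39 and 32 UMI in all.

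Syntaxins were low and scattered. Stx1a, a plasma membrane syntaxin of neurons, stood at 212, 15.2, 56.2 and 39.9 CPM in ChC and 13.8, 2.09, 29.3 and 49.4 in Pv batches. Batch 1 lay far above the rest, and the other ChC batches overlapped the Pv batches. The family's highest mean belonged to Stx5a, a Golgi syntaxin, with 161 CPM, or 94.4 from a single row, since its 2 transcript rows held equal counts in every cell. Stx16, of the trans-Golgi network, followed at 73.0, or 85.3 in the fit of single rows. The leading syntaxin differed between batches, and with a single row per gene Stx5a led in 1 of 8, where the sum of rows put it first in 4. The other 10 syntaxins with UMI had means of 0.190 to 51.6 CPM.

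Complexins showed one stable choice. Cplx1, which clamps and triggers the SNARE complex, stood at 2230.2, 1448, 1658 and 867 CPM in ChC and 2566, 1874, 1285 and 3372 in Pv batches. The lowest value was a ChC batch and the highest a Pv batch, and the ranges overlapped. Cplx2, its paralog, stood at 386, 259.5, 97.7 and 338 in ChC and 265, 27.2, 176 and 67.7 in Pv batches. The log2 fold changes were -0.67 with an SE of 0.41 for Cplx1 and 0.93 with an SE of 0.78 for Cplx2 (edgeR quasi-likelihood test with Benjamini-Hochberg adjustment, adjusted p = 0.901 and 0.976).

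Cplx1 made up 85.2%, 84.8%, 94.4% and 71.9% of the Cplx1 and Cplx2 UMI in ChC batches and 90.6%, 98.6%, 88.0% and 98.0% in Pv batches. It supplied most of the pair in every batch, with ChC batch 3 inside the Pv range. The difference of animal means was -8.13 percentage points (ChC minus Pv, exact permutation test over animals, p = 0.333). It was -4.05 points without batch 8 and -5.33 without batch 4 (exact permutation test, p = 0.667 for each), and -16.6 without batch 3. All 108 thinned cells had Cplx1, while Cplx2 was found beside it in 45 of 49 ChC cells (91.8%, 80.4% to 97.7%) and 37 of 59 Pv cells (62.7%, 49.1% to 74.96%). Those were 11 of 11, 10 of 10, 10 of 14 and 14 of 14 cells in ChC batches 1 to 4, and 15 of 15, 2 of 13, 14 of 15 and 6 of 16 in Pv batches 5 to 8. Cells of 1 animal are not replicates, and the Pv batches split within each animal.

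Cplx3, a membrane-anchored complexin best known from ribbon synapses, was chosen after its values were seen. It stood at 0, 1.52, 23.8 and 79.0 CPM in ChC batches 1 to 4 and at 0 in all 4 Pv batches. The ChC value rested on animal 2, with UMI in 11 of 16 cells of batch 3 and 14 of 15 cells of batch 4, against 1 of 16 in batch 2. Batch 4 also had the highest sum of other-interneuron markers, 1094 CPM. Pv batches 6 and 8, with sums of 580 and 632, had no Cplx3. The part of such cells in the Cplx3 level was not tested. Summed over all cells, 165 UMI in ChC were at least 22.9-fold higher in CPM than the 3 UMI that a count of 0 allows in Pv. That limit fell to 11.8-fold without batch 4 and 9.77-fold without animal 4, and without animal 2 the 1 UMI left in ChC (0.843 CPM) lay below the Pv limit of 1.33 CPM, so no fold can be given. Cplx3 did not pass the filter on low counts and was not tested, and Cplx4 had 1 UMI in all.

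Factors that prepare the SNAREs came next. Stxbp5 (tomosyn), which competes for SNAREs, ranged from 6.07 to 346 CPM, and Stxbp2, Stxbp4 and Stxbp6 had means of 12.7, 62.4 and 32.2.

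Unc13b and Unc13a, the priming factors Munc13-2 and Munc13-1, had means of 70.6 and 62.4 CPM, and the order turned with a single row per gene (41.4 and 73.0), as both rows of Unc13b held equal counts in every cell. With a single row Unc13a led in 5 batches, Unc13c in 2 and Unc13b in 1. Unc13c and Unc13d had means of 24.5 and 4.95. Nsf, the ATPase that takes spent SNARE complexes apart, stood at 1076, 542, 381 and 409.8 CPM in ChC and 815, 469, 320.3 and 224 in Pv batches. The first batch of each type held its highest value, and the types overlapped.

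At the active zone, Rims1 and Rims2, which tie Rab3 on the vesicle to calcium channels, had similar means of 356 and 271 CPM but varied between batches of one animal. Rims1 stood at 163, 326, 339 and 577 in ChC and 48.5, 896, 295 and 205 in Pv batches. The extremes, batches 5 and 6, came from the same Pv animal. Rims1 made up 29.5%, 67.2%, 51.2% and 83.0% of the pair in ChC batches and 9.29%, 79.9%, 65.7% and 38.6% in Pv batches, a wide spread within each type. Animal means differed by 3.09 percentage points (ChC minus Pv, exact permutation test, p = 0.667), and the difference was -0.637 points with a single row per gene, as Rims2 has 2 rows. Both genes were found in 37 of 49 ChC (75.5%) and 37 of 59 Pv cells (62.7%) after thinning.

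Rims3, a short form without the Rab3-binding domain, was chosen after its values were seen. It stood at 8.58, 94.1, 44.5 and 0.782 CPM in ChC batches and 0, 0, 1.95 and 0 in Pv batches. ChC batch 4 lay below Pv batch 7, and 30 of 63 ChC cells against 1 of 63 Pv cells had a UMI. Over all cells the ratio of ChC to Pv was 77.2, with a 95% interval from 13.7 to 3065 that covers counting error only, as Pv held 1 UMI. Rims4, another short form, ranged from 1.51 to 113 CPM.

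Bassoon (Bsn) and Piccolo (Pclo), the giant scaffolds of the active zone, had means of 281 and 642 CPM, the latter 489.8 from a single row. Pclo stood at 1040.0, 1097, 781 and 319.9 in ChC and 325, 882, 369 and 325 in Pv batches. Every Pv batch lay within the ChC range, since ChC batch 4 lay just below the lowest of them. From a single row, ChC batch 4 (292) lay above Pv batches 7 and 8 (265 and 255). Pv batch 6 (772) then lay above every ChC batch.

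Rab3 proteins recruit Rims to the vesicle. Rab3a stood at 422, 288, 361 and 414 CPM in ChC and 545, 591, 336 and 947 in Pv batches. Pv batch 7 lay among the ChC batches and the other Pv batches lay above them. The log2 fold change was -0.92 with an SE of 0.55 (edgeR quasi-likelihood test with Benjamini-Hochberg adjustment, adjusted p = 0.890), and without TMM scaling all 4 Pv batches lay above the ChC batches. Mpv17l2 lies within 1000 bases of the 3′ end of Rab3a on the opposite strand, and since how strand was used in counting is not stated, its level is uncertain.

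Rab3c stood at 392, 718, 118 and 1097 CPM in ChC and 337, 322, 236 and 506 in Pv batches, and led Rab3a in ChC batches 2 and 4. Rab3b, a form needed for long-term depression at some inhibitory synapses, had means of 62.3 ± 41.5 in ChC and 153 ± 96.5 in Pv batches, and is uncertain for the same reason. Rab3a made up 49.6%, 26.2%, 72.6% and 25.7% of Rab3 UMI in ChC batches and 55.7%, 50.5%, 54.1% and 56.9% in Pv batches. Its share lay within a few points in Pv batches and spread widely in ChC batches, also within each ChC animal. The difference of animal means was -15.3 percentage points (ChC minus Pv, exact permutation test, p = 0.333). It rested on batch 4, without which it was -1.03 points (exact permutation test, p = 1), and it was -7.78 without batch 2 and -24.5 without batch 3.

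Among vesicle proteins, the synapsins, which tether vesicles in the reserve pool, were led by Syn2 in every batch. Syn2 stood at 914, 744, 1016 and 857 CPM in ChC and 318, 741, 338 and 831 in Pv batches. Pv batch 8 lay within the ChC range. Syn1 had means of 149 ± 36.1 and 135 ± 81.7 and made up 10.7% to 28.8% of the Syn1 and Syn2 UMI over the batches, with a difference of animal means of -3.99 percentage points (ChC minus Pv, exact permutation test, p = 1), or -6.31 without batch 8 and -6.12 without batch 6. Both were found in 32 of 49 ChC (65.3%) and 39 of 59 Pv cells (66.1%) after thinning. Syn3 ranged from 8.38 to 401 CPM. A single row of Syn2 gave a mean of 436 CPM, and with it the Syn1 share was 19.03% to 44.3%. Araf lies near the 3′ end of Syn1 on the opposite strand, so its level is uncertain.

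Sv2a, the vesicle glycoprotein that binds levetiracetam, made up 57.3% to 90.6% of Sv2 UMI and led in every batch, at 140.2 ± 38.3 CPM in ChC and 260.3 ± 133 in Pv batches. The difference of animal means in that share was -4.73 percentage points (ChC minus Pv, exact permutation test, p = 1). Its sign turned without batch 8 (3.45 points) or batch 6 (0.158). It was -0.630 points in thinned cells and -1.49 with batches as samples. Sv2c followed at 40.1 ± 25.8 and 50.7 ± 10.4, and Sv2b at 10.95 ± 9.79 and 17.8 ± 16.8, or 6.42 and 10.4 from a single row, as its 2 rows held equal counts in every cell (9.45 in Pv without batch 7, from both rows). Syngr1, a synaptogyrin, stood at 669 ± 97.6 and 582 ± 176 and Syngr3 at 129 ± 45.3 and 64.9 ± 33.7. Syp, the abundant vesicle protein synaptophysin, stood at 104 ± 46.5 and 50.4 ± 48.4 (26.4 in Pv without batch 8), and Synpr, synaptoporin, at 12.7 ± 11.8 (6.87 without batch 2) and 11.6 ± 6.66. The types overlapped in each of these.

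**Figure D1:**
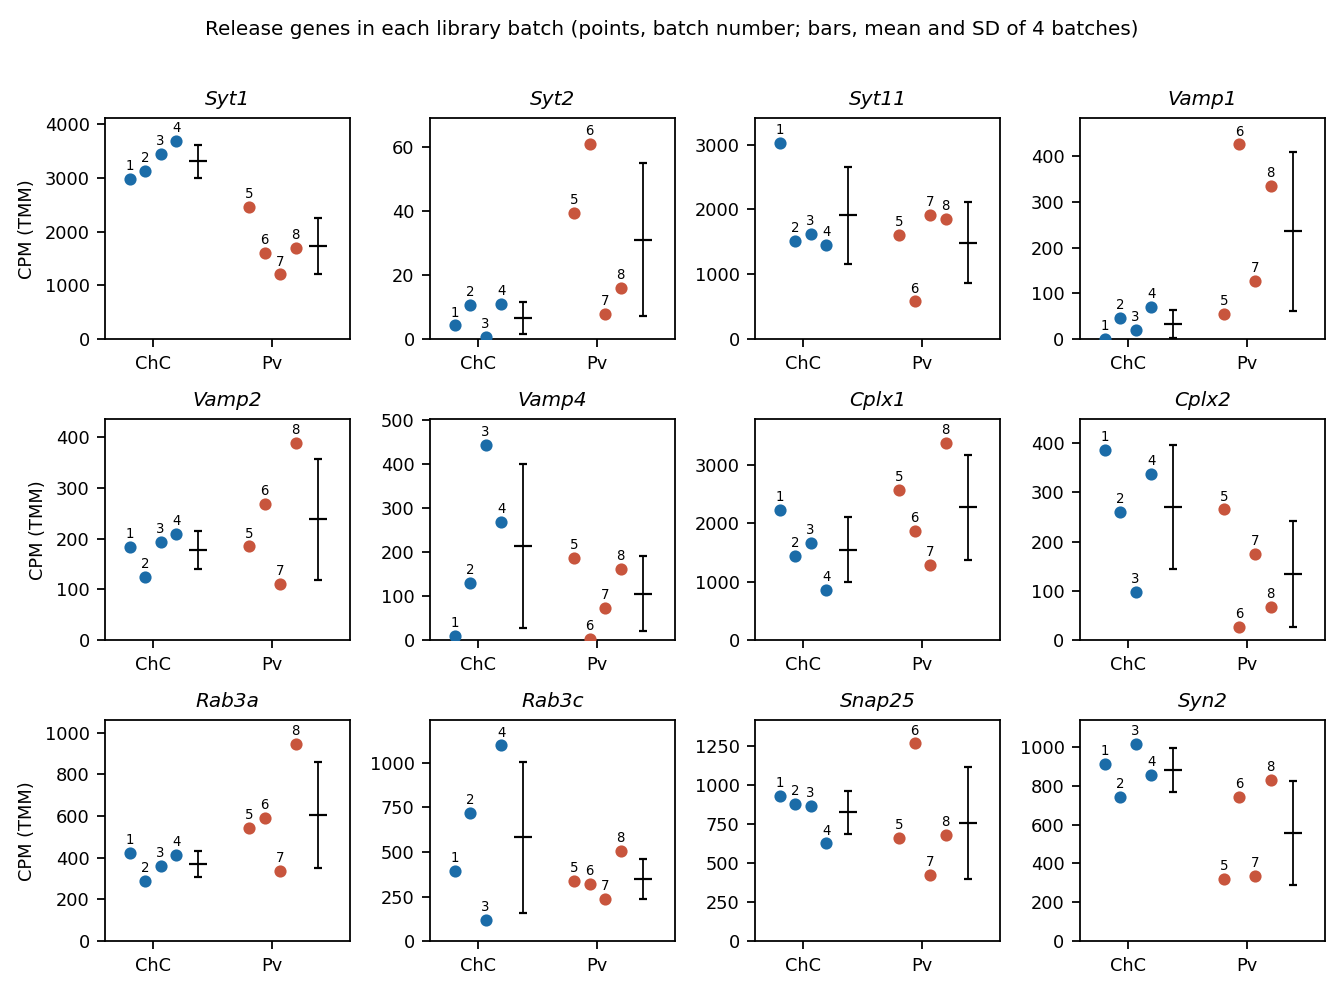
Level of 12 release genes in each library batch, as CPM with TMM scaling on axes that start at 0; points carry the batch number (1 to 4 ChC, 5 to 8 Pv), and bars give the mean and SD of 4 batches. Syt1 is the panel in which the ChC points, from 2985 to 3678, all lie above the Pv points, from 1203 to 2457.

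**Figure D2:**
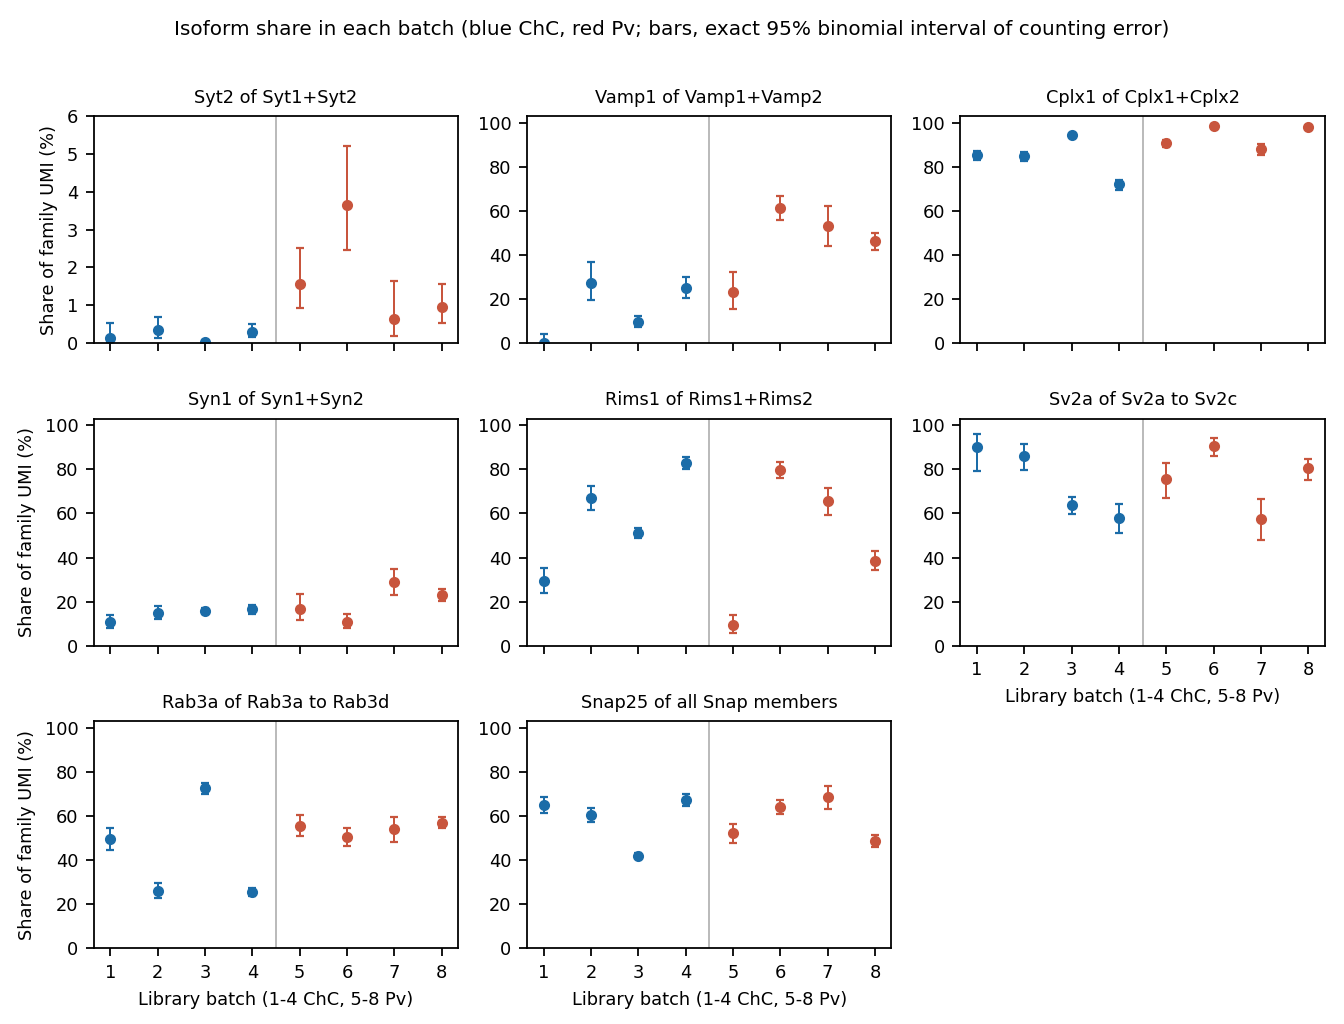
Share of the first-named gene in the UMI of its pair or family, in percent, in each batch (blue ChC, red Pv), with exact 95% binomial intervals that cover counting error only; the Syt2 panel has a shorter axis. Vamp1 made up at most 27.4% of its pair in ChC batches and up to 61.3% in Pv batches, while Rims1 spread widely within each type.

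Differences between the types were tested over animals, 2 against 2, in a fit of all genes. Of 9829 genes tested, 0 had an adjusted p under 0.05 (0% of all genes), and 0 of the 61 members tested did (edgeR quasi-likelihood test). At an unadjusted p under 0.05 there were 2 members, Vamp1 and Rims3, of 61, beside 6.27% of all genes (edgeR quasi-likelihood test). DESeq2 called 1 member, Rims3 (adjusted p = 0.0460), beside 1.78% of all genes; over the alternatives in which it was tested its adjusted p ran from 0.0460 to 0.890. Rims3 had 185 UMI in ChC and 1 in Pv cells, passed the filter on low counts through ChC alone and was chosen after its values were seen, so nothing is read from its p in either test. The remaining members, 14 with UMI and 7 without, did not pass the filter on low counts. The members' median log2 fold change was 0.22, with 37 of 61 above 0, and that of all genes tested was 0.04, with 51.5% above 0. With animals 1 to 4 left out in turn, the members' median was 0.20, -0.15, 0.40 and 0.39, and that of all genes -0.08, -0.30, 0.20 and 0.58. The members' median thus changed sign without animal 2, lay below that of all genes without animal 4, and was 0.07 without batch 3.

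Overlap of batches was counted next. Among the 47 members that passed the filter over batches, 1 (Syt1) had all ChC batches above all Pv batches, beside 3.36% of 6481 genes. None had all ChC batches below, beside 1.43% of those genes. The members' share was near that of all genes in either direction and is not a result about the members.

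**Figure D3:**
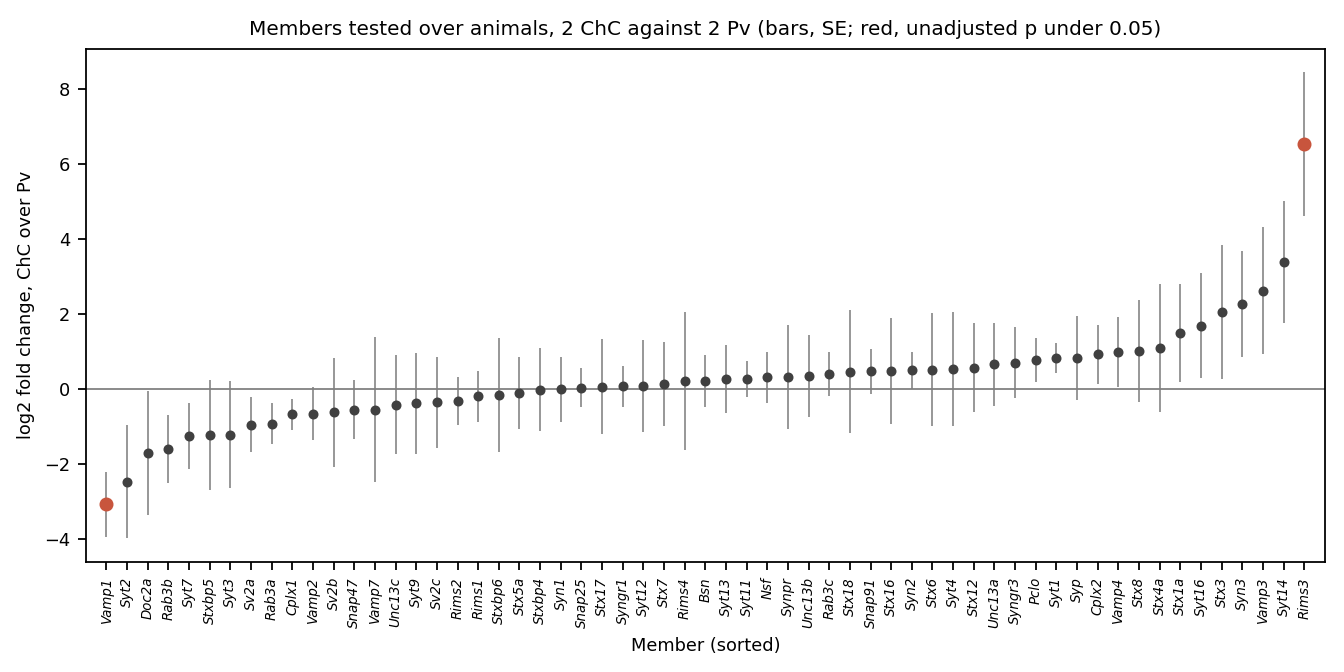
Log2 fold change of ChC over Pv for 59 of the 61 members tested over animals (points), sorted by value, with the SE as bars; red points had an unadjusted p under 0.05. Vamp1 lies lowest at -3.07, the highest point, Rims3, had 1 UMI in Pv, and no member passed the adjusted threshold.

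Genes that work beside the release machinery were counted from a list of 51 (SNARE recycling, active zone, priming, vesicle proteins, endocytosis and the proton pump). Of the 50 tested over animals, 0 passed an adjusted p under 0.05 and 7 had an unadjusted p under 0.05 (edgeR quasi-likelihood test with Benjamini-Hochberg adjustment), while DESeq2 called 2, Rph3a among them, beside 6.27% of all genes at an unadjusted p under 0.05 and 1.78% called by DESeq2. In batches, 6 of 50 had all ChC batches above and 4 of 50 all below, beside the 3.36% and 1.43% of all genes. The genes named here were chosen after their values were seen. Among partners of the members, Erc2, an active zone scaffold that binds Rims, had means of 811 ± 319 in ChC and 149.5 ± 71.4 in Pv batches. Cadps, a priming factor, had 568 ± 191 and 181 ± 53.1, and Rph3a, a Rab3 effector, 109 ± 125 (47.9 without batch 1) and 3.42 ± 6.84 (0 without batch 7). In the other direction, Rimbp2, which links Rims to calcium channels, had 12.2 ± 7.06 and 88.5 ± 38.9, and Sh3gl2, an endophilin, 67.7 ± 53.3 and 320.0 ± 164. The batches did not overlap in any of these (SD, n = 4), but some gaps were narrow. For Sh3gl2 the highest ChC batch stood at 112 CPM and the lowest Pv batch at 115. For Rph3a the lowest ChC batch stood at 19.6 CPM and the highest Pv batch at 13.7.

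Isoform shares rest on reads being told apart between paralogs, so the coding sequences of 3 pairs were compared in the mm9 reference (NCBIM37, GENCODE vM1 coding exons). Vamp1 and Vamp2 were identical at 76.4% of 347 aligned coding bases, Syt1 and Syt2 at 75.9% of 1235, and Cplx1 and Cplx2 at 79.6% of 402. In that build Vamp1 lies at chr6:125165599-125172324 and Vamp2 at chr11:68902030-68905883, Syt1 at chr10:107934706-108448031 and Syt2 at chr1:136543258-136645994, and Cplx1 at chr5:108947573-108979046 and Cplx2 at chr13:54472713-54485278, each pair on separate chromosomes. The longest run that the transcripts of a pair shared exactly, untranslated ends included, was 18, 26 and 32 bases. For each pair, the 90 coding bases inside 1 exon where the genes are most alike are shown 5′ to 3′ on the coding strand, with capitals at the bases that differ.

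The Vamp stretches lie in the third of 5 coding exons, at chr6:125168929-125169018 (plus strand) for Vamp1 and chr11:68903233-68903322 (plus strand) for Vamp2, and differ at 10 bases.
Vamp1: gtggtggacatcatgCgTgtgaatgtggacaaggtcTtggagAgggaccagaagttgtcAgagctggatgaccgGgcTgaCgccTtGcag
Vamp2: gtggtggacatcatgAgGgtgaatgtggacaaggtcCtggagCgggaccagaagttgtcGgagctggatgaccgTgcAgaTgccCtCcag

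The Syt stretches lie in the seventh of 8 coding exons, at chr10:107941480-107941569 (minus strand) for Syt1 and chr1:136643348-136643437 (plus strand) for Syt2, and differ at 12 bases.
Syt1: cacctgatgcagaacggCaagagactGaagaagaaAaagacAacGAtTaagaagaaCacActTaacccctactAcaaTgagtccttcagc
Syt2: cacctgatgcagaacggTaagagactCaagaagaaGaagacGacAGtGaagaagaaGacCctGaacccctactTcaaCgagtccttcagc

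The Cplx stretches lie in the second of 3 coding exons, at chr5:108954497-108954586 (minus strand) for Cplx1 and chr13:54480176-54480265 (plus strand) for Cplx2, and differ at 12 bases.
Cplx1: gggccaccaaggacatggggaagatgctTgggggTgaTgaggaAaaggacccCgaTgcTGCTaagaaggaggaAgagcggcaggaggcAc
Cplx2: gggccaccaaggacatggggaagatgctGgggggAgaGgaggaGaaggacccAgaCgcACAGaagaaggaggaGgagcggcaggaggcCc

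Even in these coding stretches the genes of a pair differ at several positions, and no run of identical bases in the transcripts exceeded 32. Reads were primed at the poly(A) end, while the stretches were sought in coding exons alone. They therefore do not show how alike the genes are where the reads lie. Whether reads near such runs were shared out between paralogs was not tested.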

How the data were processed

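The authors deposited counts of unique tags (UMI) per transcript and cell, from reads aligned to mm9 with Bowtie 0.12.7. Of 128 cells, 2 had no count. Rows were summed per gene name, and cells per batch and per animal. Members and lists were chosen with earlier results of these data known. The 4 animals were compared with edgeR 4.0.16 (R 4.3.3; TMM, filterByExpr, quasi-likelihood test, Benjamini-Hochberg over all genes, threshold 0.05). Isoform shares were compared by two-sided exact permutation tests (scipy 1.17.1), and figures were drawn with matplotlib 3.10.9. Genes named were the 2 members of each family with the highest mean level, members called or with batches that did not overlap, genes of the isoform pairs and the label checks. Results of some members are not reported here. Cells with both isoforms were counted after thinning to 10000 UMI. Alternatives were DESeq2 1.42.0, no filter, batches as samples, a single row per gene, thinned cells, no TMM, cells weighted equally, another detection minimum, and each animal or batch left out.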

Additional observations from a re-analysis of the deposited data

Results flagged for a closer look

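Of 127 groups of 4 batches tested over 66 named genes (55 members), 21 (16.5%) held a batch far from the others of its type. The limit used passes about 1 in 20 groups of normally distributed values. How often chance passes it in low, skewed counts was not tested. The test first covered 39 members, and the other genes were added to it after their values were seen. Levels are in CPM (scaled UMI), with the other batches of the type in parentheses. In ChC batch 1, Syt11 stood at 3030.0 (1459 to 1617), Vamp3 at 356 (1.51 to 59.4) and Rph3a at 294 (19.6 to 63.4). In ChC batch 2, Syn3 stood at 401 (12.1 to 60.2), Stxbp6 at 88.0 (2.14 to 6.26), Synpr at 30.4 (6.26 to 7.92) and Cplx4 at 1.52 (0). In Pv batch 5, Stx16 stood at 238 (0 to 19.5), Rims4 at 113 (2.09 to 11.7) and Vamp5 at 9.23 (0). In Pv batch 6, Pclo stood at 882 (325 to 369) and Stxbp5 at 346 (7.81 to 36.9). In Pv batch 7, Rimbp2 stood at 146 (64.4 to 73.8), Stxbp6 at 111 (12.6 to 16.2), Syn3 at 104 (8.38 to 13.96), Sv2b at 42.97 (8.38 to 10.7, and from a single row 25.1 against 4.92 to 6.22), Rph3a at 13.7 (0) and Rims3 at 1.95 (0). In Pv batch 8, Syt7 stood at 537 (94.2 to 168), Syp at 122 (20.9 to 35.2) and Vamp3 at 45.1 (0 to 2.31). Where the other batches held 0, any UMI met the rule. The causes were not tested.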

How the results depend on the processing

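The count of members past the threshold over animals was 0 in edgeR in every alternative run, including each animal or batch left out, and 1 in DESeq2 (Rims3; 174 of 9800 genes, against 0 of 9829 in edgeR). Genes called in all were 80 without a filter, 5 with batches as samples, 1 with thinned cells, and 7 to 100 with an animal left out. Leaving out an animal leaves a lone sample, assumed to vary like the other group. The log2 fold changes of the genes given above kept their sign; that of Vamp1 ran from -3.85 to -2.37 (edgeR and DESeq2, adjusted p 0.0649 to 0.966), that of Syt1 from 0.60 to 1.07, and Pvalb passed in some alternatives (adjusted p 0.0133 to 0.889). The median log2 fold change of all genes was 0.04 with TMM and -0.02 without, and genes with ChC batches above or below were 3.36% and 1.43% with TMM and 2.47% and 2.28% without. Members with all ChC batches below numbered 1 without TMM and 1 with thinned cells (Rab3a), and 3 with cells weighted equally (Cplx1, Rab3a and Sv2a), beside 2.28%, 2.48% and 2.13% of all genes. With 1 batch left out they numbered 0 to 4, Vamp1 among them without batch 4 or 5, and those above 1 to 3, Syt1 in each, beside 2.15% to 3.87% of all genes below and 4.41% to 5.74% above. The Syt2 share differed by -1.50 points with batches as samples (exact permutation test, p = 0.0286, the smallest that 70 arrangements allow). Batches of 1 animal are not independent, so nothing is read from that p. The difference in Rims1 share was -0.637 points with a single row per gene and -7.38 (without batch 5) to 27.9 (without batch 6) with a batch left out. Snap25 differed by 0.0624 points as a mean of shares in cells, 0.312 with batches as samples, 5.58 without Snap91 (chosen after seeing the data) and -9.76 (without batch 8) to 8.69 (without batch 3). Sv2a differed by -8.13 (without batch 7) to 3.45 points (without batch 8). Cells with both isoforms as deposited were 26.98% of ChC and 55.6% of Pv cells for Syt1 and Syt2, 52.4% and 85.7% for Vamp1 and Vamp2, 95.2% and 85.7% for Cplx1 and Cplx2, 87.3% and 81.0% for Syn1 and Syn2, and 85.7% and 85.7% for Rims1 and Rims2. With at least 2 UMI they were 0% and 1.69%, 4.08% and 47.5%, 61.2% and 38.98%, 38.8% and 30.5%, and 38.8% and 30.5%, in the same order. In cells thinned to 5000 UMI they were 5.17% and 13.1% for Syt1 and Syt2, 8.62% and 39.3% for Vamp1 and Vamp2, 70.7% and 34.4% for Cplx1 and Cplx2, 48.3% and 40.98% for Syn1 and Syn2, and 44.8% and 45.9% for Rims1 and Rims2. With a batch left out, both were found in 8.57% to 23.7% of ChC and 65.1% to 86.4% of Pv cells for Vamp1 and Vamp2 and 88.6% to 100% and 50% to 76.1% for Cplx1 and Cplx2. The cause was not tested.

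With 4 animals, no exact test could reach 0.05, and a p above the threshold does not show equal levels. No paired analysis was possible because no animal gave both cell types. Cell type cannot be told apart from mouse line, animal or flow cell. Syt2 and Doc2b rest on few UMI, and 14 ChC and 4 Pv cells were too shallow for thinning.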
